A study of Mus musculus with 4 samples.

Results

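Genes of mitosis, the kinetochore and the kinesin motor family were followed across a FAK knockdown and a norepinephrine treatment of mouse prostate cancer cells. The genes were chosen by symbol, as every protein-coding centromere protein gene (Cenp) and kinesin gene (Kif), together with named genes of the spindle checkpoint, the mitotic kinases and cyclins, anaphase, chromosome condensation and the spindle. The name rule matched 106 genes, of which 93 reached a level of at least 1 CPM, a count scaled to library size, in at least 1 library. These 93 genes are described here among the 12351 genes of any kind that reached the same level, out of 52636 in the deposited table.

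The cells were Myc-CaP, an established prostate cancer line from Hi-Myc transgenic mice of the FVB strain, so all groups carried the Myc transgene. They had been stably transfected with hairpin RNAs directed at FAK, the focal adhesion kinase encoded by Ptk2 (shFAK), or with a negative control hairpin (shNC), and were grown in medium with serum. The 4 groups were shFAK with 10 µM norepinephrine for 24 h, shFAK with vehicle, shNC with 10 µM norepinephrine for 24 h, and shNC with vehicle. Each group was 1 RNA-seq library of 1 culture, and the labels do not say whether a line was a clone or how many hairpin sequences were used.

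In mitosis, the kinase CDK1 with its cyclin partners drives entry, the kinetochore joins centromeres to spindle microtubules, and the checkpoint holds the anaphase-promoting complex (APC/C) inactive until all chromosomes are attached. CDC20 then activates the APC/C, which marks cyclin B and securin for destruction so that separase can split the sister chromatids. Kinesins are motors that walk along or take apart microtubules. Some of them build and move the mitotic spindle, while others carry organelles, vesicles or ciliary cargo in cells at any stage. Most mitotic genes are transcribed late in the cell cycle, so their RNA level in a culture is commonly read as a sign of the share of dividing cells. In these bulk samples, fewer dividing cells and less RNA per cell cannot be told apart.

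The libraries held 23410486 to 29948640 counts, and the 106 genes took 1.07% of them in shFAK norepinephrine, 1.09% in shFAK vehicle, 1.02% in shNC norepinephrine and 1.07% in shNC vehicle. The shFAK norepinephrine library stood apart in having counts for 23121 genes, against 20442 to 21678 in the others, although it had the lowest total. Ptk2 was lower in shFAK than in shNC, with log2 ratios of -1.19 under norepinephrine (99% counting interval -1.31 to -1.06) and -1.29 under vehicle (-1.42 to -1.18). Of the epithelial markers reported here, Krt8 had 48 and 50 counts in shFAK norepinephrine and vehicle, against 165 and 153 in shNC norepinephrine and vehicle. Krt18, Epcam and Cdh1 had at most 15 counts in each library. Markers of fibroblasts summed to 13.4 and 13.2 CPM in shFAK norepinephrine and vehicle, against 7.58 and 9.72 CPM in shNC norepinephrine and vehicle, with Dcn and Lum at 0. Those of immune cells summed to 0.945 to 1.39 CPM with Cd3e at 0, and those of endothelium to 0.0377 to 0.188 CPM. The part of these differences in the results was not tested.

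None of the 93 genes differed 2-fold in any comparison, but smaller differences between the shFAK and shNC lines ran in both directions, also within some roles. In a model over all 4 libraries, 21.5% of the 93 genes were called higher in shFAK and 16.1% lower, against 19.5% and 16.2% of all genes. Among those called higher were 7 of 14 kinesins outside mitosis, the proliferation marker Mki67, the topoisomerase Top2a and the condensin subunits Smc2 and Ncapg2. The mitotic kinase genes Cdk1 and Plk1, the APC/C genes Cdc20 and Ube2c, the chromosome passenger genes Birc5, Cdca8 and Incenp and the centromere genes Cenpb, Cenpm and Cenpw were called lower, although the ratio of Cenpw under vehicle was not clear of 0. With a correction for gene length and GC content, Mki67, Top2a, Plk1, Cdc20 and Cenpm lost their calls, and 4 of the 7 kinesins kept theirs. Gene length moved with the split into higher and lower, as described after the roles.

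Ratios between libraries are given as log2 of TMM-scaled CPM, a scaling of edgeR that sets the bulk of genes equal, with 99% intervals that cover counting error only. The size rule of at least 2-fold with an interval clear of 0 was met by 0 of the 93 genes. Over all 12351 genes it was met by 3.25% for shFAK against shNC under norepinephrine, 1.88% for the same contrast under vehicle, 0.874% for norepinephrine against vehicle in shFAK, 0.858% in shNC and 0.785% for the difference between these responses. Of the 93 genes, 91 had at least 100 counts in every library, and the largest log2 ratio among those averaging at least 5 CPM was 0.84. The part of depth in this result was not tested.

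At any size, the interval was clear of 0 and higher in shFAK for 27 genes under norepinephrine and for 21 under vehicle, and lower for 27 under each. The share of all genes tested was 27.7% higher and 25.7% lower under norepinephrine (53.5% in either direction), and 21% higher and 20.9% lower under vehicle (41.9%). Under both treatments 19 genes were higher (20.4% of the 93, against 17% of all genes) and 22 were lower (23.7%, against 16.6%). The median log2 ratio of the 93 genes was 0.01 under norepinephrine and -0.02 under vehicle, beside 0.02 and 0.00 over all genes tested. Neither the counts nor the medians stood far from those of all genes. Over the 93 genes, the ratios of the norepinephrine pair and of the vehicle pair, which share no library, had a Pearson correlation of 0.85, against 0.60 over all 12351 genes. The Spearman correlations were closer, at 0.81 and 0.70, and the signs matched for 81.7% and 78.6% of genes. The median level was 86.9 CPM for the 93 genes and 31.1 CPM for all genes tested, and the part of level in these correlations was not tested.

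A quasi-likelihood fit in edgeR to the 4 libraries together, with hairpin and treatment as additive terms and Benjamini-Hochberg adjustment over all genes, called 20 of the 93 genes higher and 15 lower in shFAK at an adjusted p under 0.05. That was 37.6% of them, against 35.7% of all genes (19.5% higher, 16.2% lower). The model has 1 residual degree of freedom, its p-values hold only if both lines respond alike to norepinephrine, and it does not measure variation between cultures. Its spread was pooled over genes, so an SE is not that of a gene alone. The responses of the lines differed, with a counting interval clear of 0, for 28 of the 93 genes (30.1%, against 23% of all genes). Ncapg2, Mki67, Aspm, Spc24, Cdk1 and Cenpw were among them, so their p-values rest on a condition from which their counts depart. When each library was corrected for its trend with gene length and GC content, the split turned to 10 higher and 21 lower, against 16.8% higher and 18.2% lower of all genes (35% called). Of the 20 genes called higher, 10 remained (Cenpj, Hmmr, Kif11, Kif18b, Kif1b, Kif24, Kif5b, Kif5c, Ncapg2 and Smc2). Of the 15 called lower, 10 remained (Birc5, Bub3, Cdca8, Cdk1, Cenpb, Cenpw, Incenp, Ncaph2, Spc24 and Ube2c). Scaling by library size alone gave 24 higher and 4 lower. Genes are said to be called, higher or lower, in the paragraphs on roles by this model without the trend correction. The counts there stand beside 19.5% of all genes called higher and 16.2% lower, or 16.8% and 18.2% with the trend off.

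**Figure D1:**
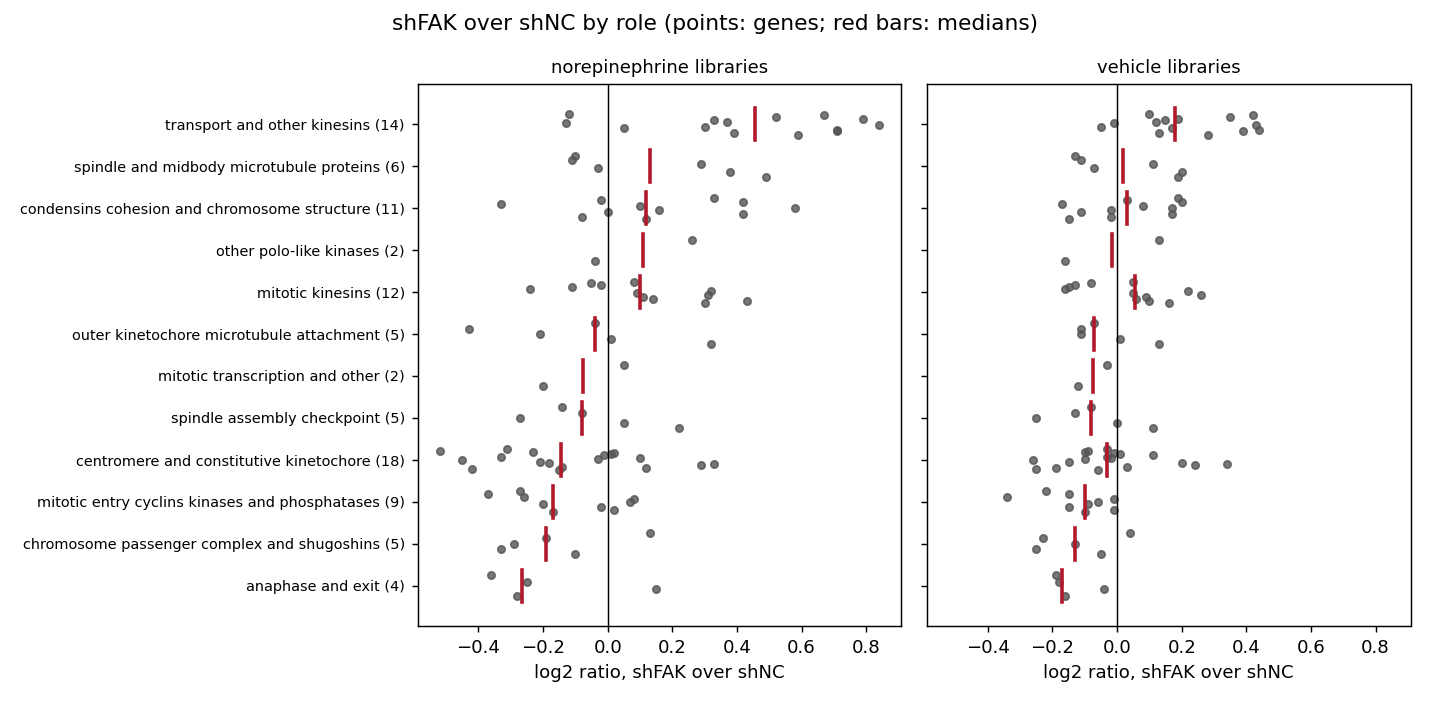
Log2 ratio of shFAK over shNC for each of the 93 genes (grey points), by role, in the norepinephrine libraries (left) and the vehicle libraries (right), with the number of genes in brackets and the median of each role as a red bar. Transport kinesins sit furthest right, with medians of 0.45 and 0.18, and the anaphase genes furthest left, with medians of -0.27 and -0.17.

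Promoters are shown for 5 of these genes because they represent both directions of the hairpin difference. Late cell cycle genes are known to be held down by the DREAM complex and switched on by MuvB, B-Myb and FOXM1 at a cell cycle homology region, searched here by its core letters TTTGAA, and by the factor NF-Y at CCAAT boxes. In each sequence the 250 bases before the RefSeq start are written 5′ to 3′ on the gene's strand (RefSeq, GRCm38.p6), and capitals mark TTTGAA or CCAAT, or their reverse complements TTCAAA and ATTGG. Cdk1 (chr10:69352913-69353162, minus strand) and Ube2c (chr2:164769679-164769928, plus strand) were lower in shFAK. Top2a (chr11:99024190-99024439), Mki67 (chr7:135716380-135716629) and Kif24 (chr4:41464849-41465098), all on the minus strand, were higher.
Cdk1: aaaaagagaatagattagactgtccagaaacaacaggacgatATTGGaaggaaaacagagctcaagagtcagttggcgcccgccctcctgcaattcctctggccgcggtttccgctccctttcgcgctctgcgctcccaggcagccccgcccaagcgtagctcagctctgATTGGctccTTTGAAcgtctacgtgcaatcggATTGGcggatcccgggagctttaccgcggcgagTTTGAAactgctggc
Ube2c: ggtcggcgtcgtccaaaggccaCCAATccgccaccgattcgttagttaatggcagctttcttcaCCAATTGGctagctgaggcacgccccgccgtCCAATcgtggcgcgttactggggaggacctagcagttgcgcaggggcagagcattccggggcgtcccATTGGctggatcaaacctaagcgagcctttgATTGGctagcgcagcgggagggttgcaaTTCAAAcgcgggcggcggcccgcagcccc
Top2a: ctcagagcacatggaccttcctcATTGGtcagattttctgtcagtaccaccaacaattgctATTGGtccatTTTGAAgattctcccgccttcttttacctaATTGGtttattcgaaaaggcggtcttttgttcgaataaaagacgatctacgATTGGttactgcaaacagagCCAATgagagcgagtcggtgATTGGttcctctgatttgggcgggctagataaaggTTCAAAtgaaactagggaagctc
Mki67: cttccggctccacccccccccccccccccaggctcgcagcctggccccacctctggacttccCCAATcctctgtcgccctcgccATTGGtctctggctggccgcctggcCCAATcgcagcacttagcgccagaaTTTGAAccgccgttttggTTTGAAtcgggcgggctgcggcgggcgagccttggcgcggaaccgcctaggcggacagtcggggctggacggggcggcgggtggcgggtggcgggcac
Kif24: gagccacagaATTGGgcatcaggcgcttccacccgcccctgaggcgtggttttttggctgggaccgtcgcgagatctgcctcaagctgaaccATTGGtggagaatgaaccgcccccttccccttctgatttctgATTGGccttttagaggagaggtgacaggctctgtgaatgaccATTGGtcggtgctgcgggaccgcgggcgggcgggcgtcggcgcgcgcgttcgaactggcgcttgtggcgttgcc
Cdk1 held 2 matches to TTTGAA and 3 to CCAAT, Ube2c 1 and 6, Top2a 2 and 6, and Mki67 2 and 3, while Kif24 had 4 matches to CCAAT and none to TTTGAA in this window. Matches on the 2 strands were counted separately, so the run of overlapping boxes in Ube2c counts as a pair.

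RefSeq promoters were matched for 80 of the 93 genes, with 87 start sites. TTTGAA occurred on either strand in 26.4% of these 87 promoters, against 10.3% of the 11295 promoters of all genes tested and 16% of all 32851 promoters. CCAAT occurred in 60.9%, against 35.8% and 33.8%, and both motifs in 21.8%, against 3.9% and 5.55%. Transport kinesins had TTTGAA in 0 of 12 promoters, and the other members in 30.7% of 75. Among members called higher in shFAK, 31.6% of 19 promoters held TTTGAA, and among those called lower, 46.2% of 13. These promoters belong to 18 and 12 genes, since start sites of the same gene were counted separately. The windows of Bub3, called lower, overlap and hold the same TTTGAA match. Genes with these letters stood on both sides of the hairpin difference. A match describes the letters and is not evidence of a bound site.

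Levels per kilobase of deposited gene length, averaged over the 4 libraries, were highest for Cdc20 (183 CPM per kb), followed by Ube2c (98.6), Plk1 (91.0), Ncaph2 (90.5), Ccnb2 (83.7) and Ccna2 (83.0). On this scale the median was 61.95 CPM per kb for the 4 anaphase genes and 59.0 for the 9 mitotic entry genes, against 14.3 for the 12 mitotic kinesins, 8.20 for the 18 centromere genes and 2.67 for the 14 transport kinesins. Regulators of mitotic entry and exit thus had the highest RNA per unit length, and transport motors the lowest. The 13 genes under 1 CPM in every library were 11 transport kinesins, the mitotic kinesin Kif2b and the polo-like kinase Plk2. Kif1a, a neuronal transport motor, and Kif2b had 0 counts in all libraries, and Kif21b, the highest of the 13, had 3 to 17.

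At the centromere and the constitutive kinetochore, 2 of 18 genes were called higher in shFAK and 3 lower, with a median log2 ratio of -0.14 under norepinephrine and -0.03 under vehicle. With the length and GC trend off, 1 was higher and 5 were lower. Cenpb (chr2:131175182-131180067), whose protein binds a motif in centromeric satellite DNA, had 277 and 239 CPM in shFAK norepinephrine and vehicle, against 371 and 284 CPM in shNC norepinephrine and vehicle. Both shFAK libraries lay below both shNC libraries, and in each line the norepinephrine library was the higher one. Its additive log2 ratio was -0.33 (SE 0.09, edgeR adjusted p = 7.90e-04).

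Cenpm (chr15:82233779-82244747), a member of the constitutive kinetochore network, had 37.7 and 32 CPM in shFAK norepinephrine and vehicle, against 51.7 and 38.3 CPM in shNC norepinephrine and vehicle, and its additive log2 ratio was -0.36 (SE 0.09, edgeR adjusted p = 7.56e-04). Its shFAK libraries were again the lower pair, and it was not called with the trend off (edgeR adjusted p = 0.0983). Cenpw, a histone-fold protein that pairs with CENP-T, had 32.3 and 34.2 CPM in shFAK norepinephrine and vehicle, against 46.2 and 36.3 CPM in shNC norepinephrine and vehicle. The shNC norepinephrine library alone was well above the rest, and the hairpin log2 ratio was -0.52 under norepinephrine (interval -0.69 to -0.35) and -0.09 under vehicle (-0.26 to 0.08). A stretch of Cenpw of at least 200 bases matches 9 other annotated genes at 95% identity or more, so its count is uncertain.

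The centromeric histone gene Cenpa had 362 and 340 CPM in shFAK norepinephrine and vehicle, against 401 and 354 CPM in shNC norepinephrine and vehicle, and was not called (edgeR adjusted p = 0.367; 0.0073, lower, with the trend off). Cenpt, which links DNA to the outer kinetochore, had 112 and 100 CPM in shFAK norepinephrine and vehicle, against 111 and 99.6 CPM in shNC norepinephrine and vehicle, and was called neither for the hairpin (edgeR adjusted p = 0.949) nor for norepinephrine (edgeR adjusted p = 0.243). The 2 genes called higher were Cenpj (additive log2 0.34, edgeR adjusted p = 0.0193), a centriole assembly factor that is not a kinetochore protein despite its symbol, and Cenpi (0.27, edgeR adjusted p = 0.0131). Cenpj was low, at 8.03 to 12.3 CPM.

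Cenpf, a large protein of the outer kinetochore and nuclear matrix, had 97.7 and 96.6 CPM in shFAK norepinephrine and vehicle, against 89.9 and 110 CPM in shNC norepinephrine and vehicle. The shFAK libraries were almost equal and lay between the shNC libraries. Its hairpin log2 ratio was 0.12 under norepinephrine (0.01 to 0.23) and -0.19 under vehicle (-0.29 to -0.09). With the trend off, Cenpf, which is 15433 bases long, was at -0.25 and -0.38.

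Of the 5 genes of microtubule attachment at the outer kinetochore, 1 was called higher and 1 lower. Cenpe, a kinesin that carries chromosomes to the spindle equator, had 103 and 110 CPM in shFAK norepinephrine and vehicle, against 82.4 and 100 CPM in shNC norepinephrine and vehicle (additive log2 0.23, SE 0.09, edgeR adjusted p = 0.0348; 0.547 with the trend off). Spc24, a subunit of the NDC80 complex, had 94.0 and 91.8 CPM in shFAK norepinephrine and vehicle, against 127 and 99.1 CPM in shNC norepinephrine and vehicle (-0.27, SE 0.09, edgeR adjusted p = 0.00924). The other genes of that complex were not called. Ndc80 had hairpin log2 ratios of 0.01 under both treatments, Spc25 of -0.04 under norepinephrine and -0.07 under vehicle, and Nuf2 of -0.21 and -0.11, beside -0.43 and -0.11 for Spc24. Nuf2 was called lower with the trend off (additive log2 -0.28, edgeR adjusted p = 3.31e-04), as was Spc24 (-0.19, edgeR adjusted p = 0.0145).

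In the spindle checkpoint, Bub3 was the 1 gene of 5 called, and it was lower. Bub3 (chr7:131560222-131571895), which brings the checkpoint kinases to the kinetochore, had 188 and 183 CPM in shFAK norepinephrine and vehicle, against 227 and 218 CPM in shNC norepinephrine and vehicle (additive log2 -0.26, SE 0.09, edgeR adjusted p = 0.0108; 4.15e-08 with the trend off). The lines did not overlap, and the treatments differed little within each line. The checkpoint kinase gene Bub1 was on the other side, with 90.8 and 101 CPM in shFAK norepinephrine and vehicle, against 78.1 and 94.1 CPM in shNC norepinephrine and vehicle, and was not called (edgeR adjusted p = 0.147). Mad2l1, an inhibitor of the APC/C, and Ttk, the kinase upstream of it, were called lower with the trend off (log2 -0.29 and -0.17) and not without it.

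The chromosome passenger complex places Aurora B kinase on centromeres and later on the midzone. Of its 4 subunit genes, 3 were called lower in shFAK, with and without the trend (18.2% and 16.2% of all genes with the trend off and without the correction). Birc5 (chr11:117849251-117855743), which encodes survivin, had 157 and 151 CPM in shFAK norepinephrine and vehicle, against 197 and 180 CPM in shNC norepinephrine and vehicle (additive log2 -0.29, SE 0.09, edgeR adjusted p = 0.00428). Incenp, the scaffold of the complex, had 218 and 225 CPM in shFAK norepinephrine and vehicle, against 249 and 263 CPM in shNC norepinephrine and vehicle (-0.21, edgeR adjusted p = 0.0487). For both genes the shFAK libraries lay below the shNC libraries. Cdca8, which encodes borealin, had an additive log2 ratio of -0.21 (edgeR adjusted p = 0.0491), and shares at least 200 exon bases with a gene on the other strand. The kinase gene Aurkb had 146 and 139 CPM in shFAK norepinephrine and vehicle, against 157 and 144 CPM in shNC norepinephrine and vehicle, and was not called (edgeR adjusted p = 0.542). The shugoshin gene Sgo1, a protector of centromeric cohesion, was not called either (log2 0.13 and 0.04 under norepinephrine and vehicle).

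Among 9 genes of mitotic entry, 3 were called lower in shFAK and 6 were not called. No log2 ratio of the 9 under vehicle was above -0.01, while under norepinephrine 3 were above 0, up to 0.08. Cdk1 (chr10:69335146-69352938), the kinase that starts mitosis, had 210 and 209 CPM in shFAK norepinephrine and vehicle, against 271 and 231 CPM in shNC norepinephrine and vehicle (additive log2 -0.26, SE 0.09, edgeR adjusted p = 0.0125; 9.23e-06 with the trend off). Plk1, the polo kinase of mitotic entry and spindle assembly, had 185 and 181 CPM in shFAK norepinephrine and vehicle, against 223 and 211 CPM in shNC norepinephrine and vehicle (-0.24, edgeR adjusted p = 0.0181; 0.107 with the trend off). In both genes the shFAK libraries were nearly equal and lay below both shNC libraries. Cdc25c, a phosphatase that activates CDK1, was lower too (-0.30, edgeR adjusted p = 0.00782; 0.0649 with the trend off), at 25.9 to 33.9 CPM, and shares 623 exon bases with an overlapping gene.

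The cyclin genes that partner CDK1 were not called. Ccnb1, cyclin B, had 238 and 244 CPM in shFAK norepinephrine and vehicle, against 242 and 270 CPM in shNC norepinephrine and vehicle (edgeR adjusted p = 0.460), and shares such stretches with 4 other annotated genes. Ccna2, cyclin A, had 333 and 347 CPM in shFAK norepinephrine and vehicle, against 328 and 348 CPM in shNC norepinephrine and vehicle (edgeR adjusted p = 0.957). The 4 libraries were close to each other for Ccna2. For Ccnb1 the hairpin log2 ratio was -0.02 under norepinephrine (-0.09 to 0.04) and -0.15 under vehicle (-0.21 to -0.09). Aurka, the spindle pole kinase, had 152 and 149 CPM in shFAK norepinephrine and vehicle, against 170 and 160 CPM in shNC norepinephrine and vehicle (edgeR adjusted p = 0.227). Ccnb2, a further B-type cyclin, had log2 ratios of -0.20 and -0.09 under norepinephrine and vehicle. Foxm1, a transcription factor that activates many genes of this set, had 186 and 192 CPM in shFAK norepinephrine and vehicle, against 180 and 195 CPM in shNC norepinephrine and vehicle (edgeR adjusted p = 0.952). The polo-like kinase Plk4, the driver of centriole duplication, had log2 ratios of 0.26 and 0.13, and Plk3 of -0.04 and -0.16.

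At anaphase, 3 of 4 genes were called lower in shFAK (16.2% of all genes). Cdc20 (chr4:118432901-118437352), the activator of the APC/C, had 324 and 306 CPM in shFAK norepinephrine and vehicle, against 394 and 342 CPM in shNC norepinephrine and vehicle (additive log2 -0.22, SE 0.09, edgeR adjusted p = 0.0312; 0.332 with the trend off). Ube2c (chr2:164769898-164778822), its ubiquitin-conjugating enzyme, had 230 and 233 CPM in shFAK norepinephrine and vehicle, against 296 and 266 CPM in shNC norepinephrine and vehicle (-0.28, edgeR adjusted p = 0.00621; 0.009 with the trend off). The shFAK libraries of both genes lay below the shNC libraries. Ube2c shares 592 exon bases with Tnnc2 on the other strand. Pttg1, which encodes the separase inhibitor securin, had 49.8 and 43.9 CPM in shFAK norepinephrine and vehicle, against 59.4 and 49.6 CPM in shNC norepinephrine and vehicle (-0.22, edgeR adjusted p = 0.0415; 0.254 with the trend off), and the lines overlapped slightly. Espl1, separase itself, is the longest of the 4 at 6630 bases and was not called (edgeR adjusted p = 0.671).

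Chromosome condensation and structure had 4 of 11 genes called higher in shFAK and 1 lower. Mki67 (chr7:135689784-135716361), which encodes the Ki-67 protein that coats mitotic chromosomes and is the usual proliferation marker in pathology, had 321 and 371 CPM in shFAK norepinephrine and vehicle, against 240 and 331 CPM in shNC norepinephrine and vehicle. The shNC norepinephrine library was the lowest by a wide margin. Its additive log2 ratio was 0.29 (SE 0.09, edgeR adjusted p = 0.00334), and 0.10 with the trend off (edgeR adjusted p = 0.188). Top2a, the topoisomerase that untangles sister chromatids, had 708 and 774 CPM in shFAK norepinephrine and vehicle, against 562 and 676 CPM in shNC norepinephrine and vehicle (0.26, SE 0.08, edgeR adjusted p = 0.00668; 0.229 with the trend off). It had the highest mean CPM of the 93 genes, and the shFAK libraries lay above both shNC libraries.

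The condensin genes were divided. Smc2 (chr4:52439243-52488260), the core ATPase common to both condensin complexes, had 143 and 159 CPM in shFAK norepinephrine and vehicle, against 107 and 139 CPM in shNC norepinephrine and vehicle (additive log2 0.31, SE 0.09, edgeR adjusted p = 0.00269; 0.00831 with the trend off). Its partner ATPase Smc4 had 303 and 357 CPM in shFAK norepinephrine and vehicle, against 308 and 350 CPM in shNC norepinephrine and vehicle, and was called neither for the hairpin (edgeR adjusted p = 0.984) nor for norepinephrine (edgeR adjusted p = 0.0869). Ncapg2, a subunit of condensin II, had 104 and 111 CPM in shFAK norepinephrine and vehicle, against 69.1 and 99.4 CPM in shNC norepinephrine and vehicle (0.37, SE 0.09, edgeR adjusted p = 2.66e-04; 0.0252 with the trend off). Ncaph2, a subunit of the same complex, was lower in shFAK (-0.25, edgeR adjusted p = 0.0144), but shares 829 exon bases with Sco2. Subunits of the same complex were thus called in opposite directions.

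**Figure D2:**
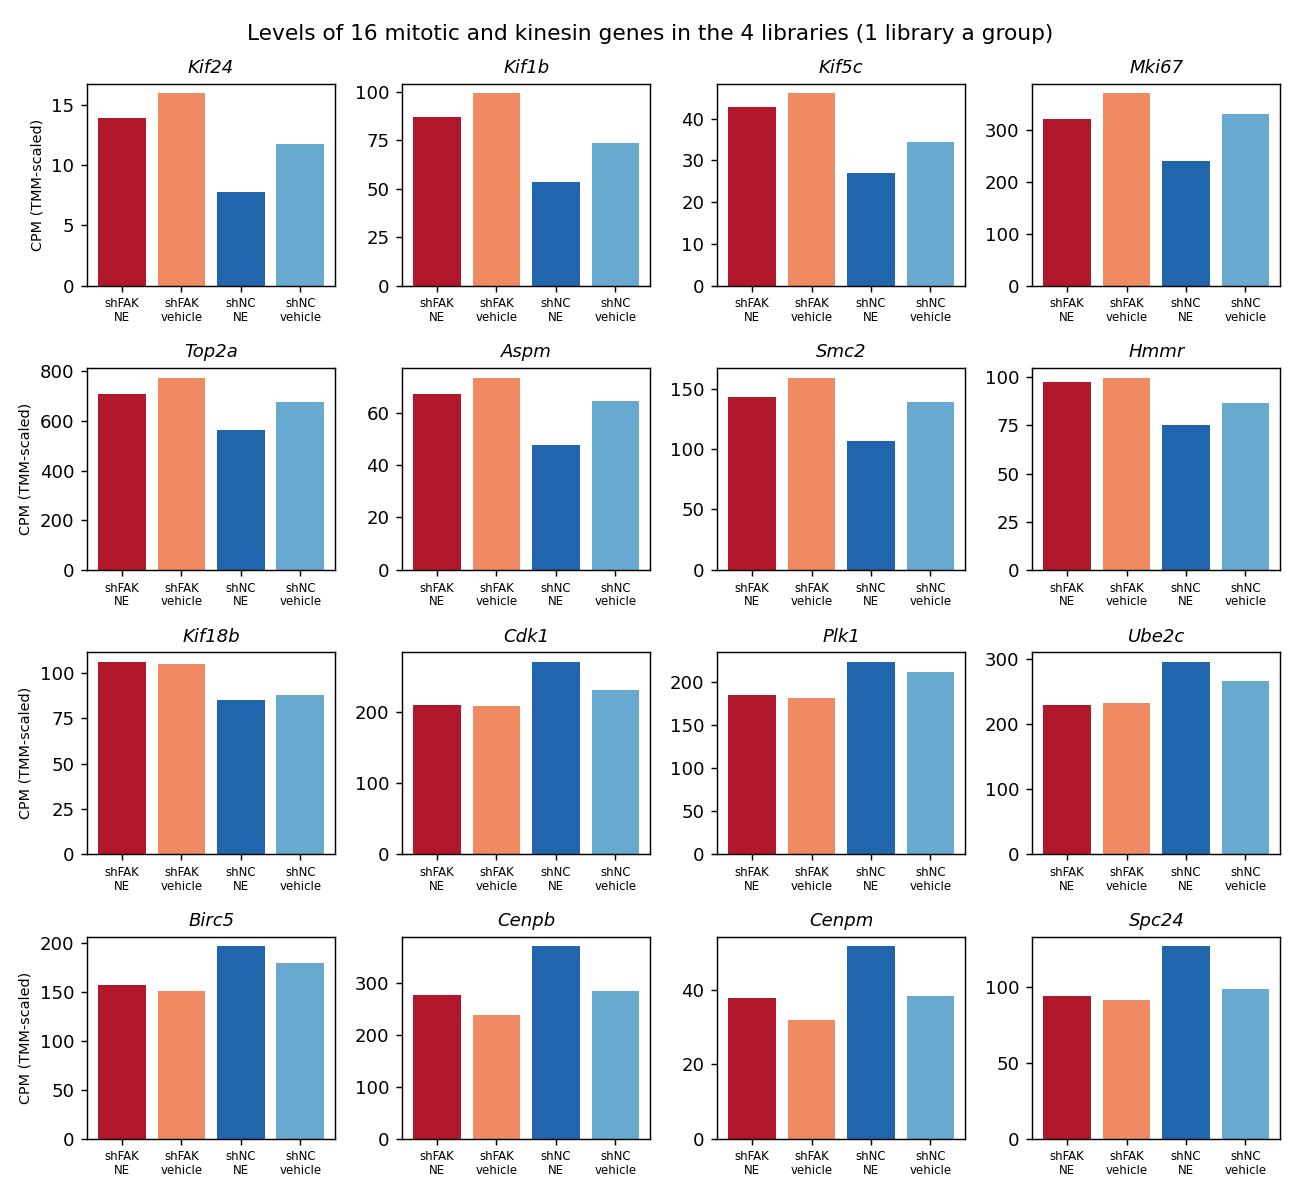
TMM-scaled CPM of 16 genes in the 4 libraries, 1 bar a library, with bars starting at 0 and each panel on its own scale. The panels from Kif24 to Kif18b show genes called higher in shFAK (red and orange) than in shNC (dark and light blue), and those from Cdk1 to Spc24 genes called lower, with Mki67 at 240 CPM in shNC norepinephrine and 321 to 371 CPM elsewhere.

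Spindle and midbody proteins had 2 of 6 genes called higher. Aspm, a spindle pole protein whose human counterpart is mutated in microcephaly, had 66.9 and 73.3 CPM in shFAK norepinephrine and vehicle, against 47.7 and 64.2 CPM in shNC norepinephrine and vehicle (additive log2 0.34, SE 0.09, edgeR adjusted p = 9.76e-04; 0.176 with the trend off). Hmmr, a hyaluronan receptor that also binds spindle microtubules, had 97.7 and 99.8 CPM in shFAK norepinephrine and vehicle, against 75.2 and 86.6 CPM in shNC norepinephrine and vehicle (0.29, edgeR adjusted p = 0.00524; 0.0107 with the trend off). Both genes had the shFAK libraries on top. Tpx2, the activator of Aurora A, was on the other side without being called (log2 -0.10 and -0.13 under norepinephrine and vehicle), and Prc1, which bundles midzone microtubules, was at 0.29 and 0.11 (edgeR adjusted p = 0.0628).

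Of 12 mitotic kinesins, 4 were called higher in shFAK and 8 were not called. Kif11 (chr19:37376403-37421859), the motor that pushes spindle poles apart, had 102 and 113 CPM in shFAK norepinephrine and vehicle, against 82.8 and 101 CPM in shNC norepinephrine and vehicle (additive log2 0.23, SE 0.09, edgeR adjusted p = 0.0332; 0.0433 with the trend off). Kif18b, which shortens astral microtubules, had 106 and 105 CPM in shFAK norepinephrine and vehicle, against 85.3 and 87.9 CPM in shNC norepinephrine and vehicle (0.29, edgeR adjusted p = 0.00566; 3.80e-05 with the trend off). It separated the lines almost equally under both treatments and, at 3572 bases, is not a long gene. Kif14 and Kif20b, motors of cytokinesis, were the other genes called (0.26 and 0.27, edgeR adjusted p = 0.0156 and 0.0113), and neither kept its call with the trend off. With the trend off, 2 of the 12 were higher and 3 lower (Kif22, Kif23 and Kif2a).

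Transport and other kinesins were the role with the highest ratios. Of 25 matched genes 14 were tested, 7 were called higher in shFAK (19.5% of all genes) and the other 7 were not called. The median log2 ratio was 0.45 under norepinephrine and 0.18 under vehicle (0.28 and 0.11 with the trend off). Their median length was 7209 bases, against 4919 over the 93 genes and 3981 over all genes tested. With the trend off, 4 kept the call, and none of the 14 was called lower in either fit.

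Kif24 (chr4:41390745-41464887), a centriole motor that restrains the formation of cilia, had 13.9 and 16 CPM in shFAK norepinephrine and vehicle, against 7.76 and 11.8 CPM in shNC norepinephrine and vehicle. It was 1.79-fold higher under norepinephrine (log2 0.84, interval 0.51 to 1.18) and 1.35-fold higher under vehicle (0.43, 0.16 to 0.71), from 207 to 424 counts a library. The additive log2 ratio was 0.62 (SE 0.11, edgeR adjusted p = 6.92e-07; 4.64e-05 with the trend off).

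Kif1b (chr4:149176319-149307693), which carries mitochondria and synaptic vesicle precursors, had 87.2 and 99.3 CPM in shFAK norepinephrine and vehicle, against 53.4 and 73.4 CPM in shNC norepinephrine and vehicle (additive log2 0.57, SE 0.09, edgeR adjusted p = 8.84e-09; 4.40e-04 with the trend off). Kif5c (chr2:49619298-49774778), a conventional kinesin heavy chain known best from neurons, had 42.9 and 46.1 CPM in shFAK norepinephrine and vehicle, against 27.0 and 34.3 CPM in shNC norepinephrine and vehicle (0.54, edgeR adjusted p = 1.71e-07; 1.04e-06 with the trend off). Its ubiquitous paralog Kif5b had 204 and 237 CPM in shFAK norepinephrine and vehicle, against 142 and 187 CPM in shNC norepinephrine and vehicle (0.43, edgeR adjusted p = 9.88e-06; 8.79e-05 with the trend off). In all of these genes both shFAK libraries lay above both shNC libraries, and the shNC norepinephrine library was the lowest of the 4.

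Kif13b, a cargo motor of the plasma membrane, was called at 0.43 (edgeR adjusted p = 4.09e-04) and was not called with the trend off (edgeR adjusted p = 0.0812). Kif16b, which moves early endosomes, and Kif3b, a subunit of the ciliary motor, were called at 0.25 and 0.24 (edgeR adjusted p = 0.0299 and 0.0415), and neither kept the call. Kif3a, the partner of Kif3b, had 14.4 and 16.2 CPM in shFAK norepinephrine and vehicle, against 15.8 and 16.4 CPM in shNC norepinephrine and vehicle, and was not called. Kif1c, the most abundant transport kinesin by CPM, had 248 and 247 CPM in shFAK norepinephrine and vehicle, against 239 and 219 CPM in shNC norepinephrine and vehicle, and was not called either (edgeR adjusted p = 0.328). Kif17 and Kif5a were at 0.641 to 1.58 CPM, too low for their log2 ratios of 0.19 to 0.79 to be clear of counting error.

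Gene length moved with the hairpin ratio, among all genes and among these. The Spearman correlation of length with the log2 ratio of shFAK over shNC was 0.63 over the 93 genes under norepinephrine and 0.42 under vehicle, against 0.47 and 0.32 over 12335 genes with a GC value. With the trend off, the correlations over the 93 genes were 0.17 and 0.06. Among the 31 shortest genes (1077 to 4059 bases), 1 was called higher and 9 lower. Among the 31 longest (6393 to 17608 bases), 13 were called higher and 1 lower, and in the 31 between, 6 and 5. Over all genes of any length, 19.5% were called higher and 16.2% lower. Shares among all genes of these lengths are not given here, so the counts describe these genes alone. These correlations are descriptions over genes that share the same 4 libraries, and the part of length in the results was not tested beyond the values given with the trend off. Bub3, Mad2l1 and Cenpf, which are longer than the median, were exceptions to the trend, as was the short gene Kif18b.

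**Figure D3:**
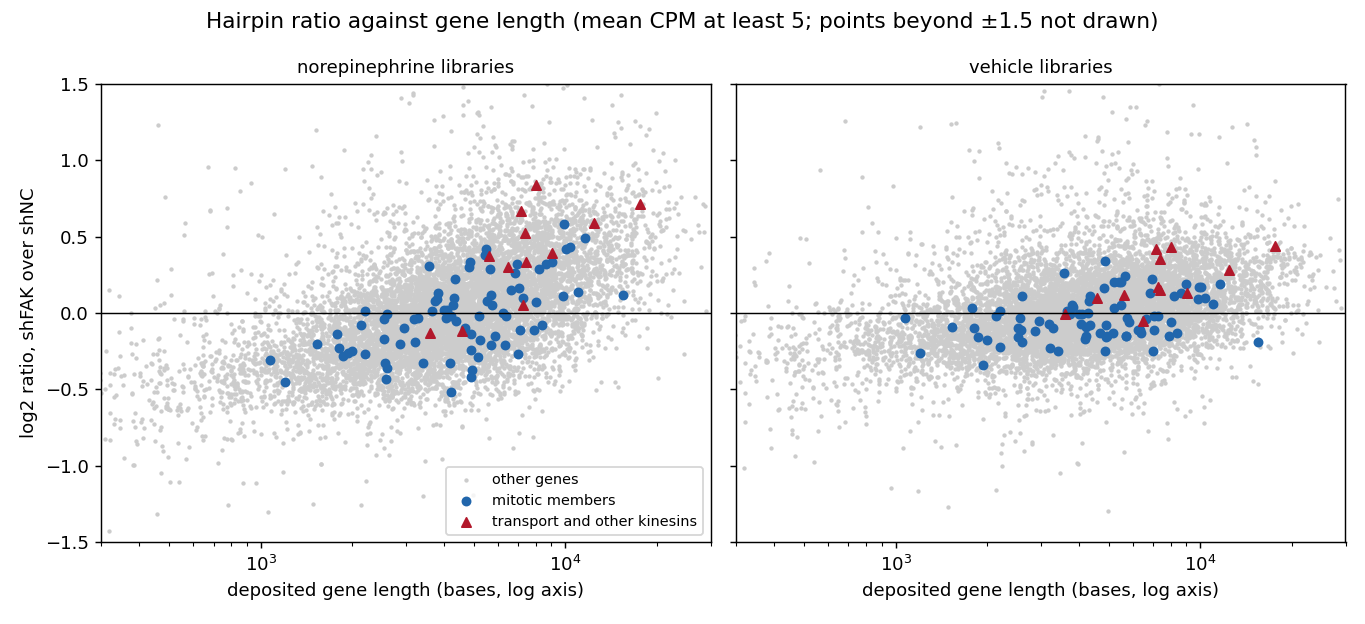
Log2 ratio of shFAK over shNC against deposited gene length (log axis), under norepinephrine (left) and vehicle (right), for genes averaging 5 CPM or more. Transport and other kinesins are red triangles, the other mitotic genes blue points and all other genes grey, and the ratio goes up with length on the left (Spearman 0.63 over the 93 genes) and on the right (0.42).

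Norepinephrine against vehicle was compared within each line. In shFAK the interval was clear of 0 for 7 genes higher and 16 lower with norepinephrine (10.4% and 12.3% of all genes tested, 22.7% in either direction). In shNC it was clear for 21 higher and 38 lower (21.7% and 22.8% of all genes, 44.5% in either direction). Both lines had 7 genes higher (7.53% of the 93, against 6.95% of all genes) and 16 lower (17.2%, against 9.95%). The median log2 ratio was -0.02 in shFAK and -0.06 in shNC, beside 0.00 in each over all genes. Over the 93 genes, the ratios of the 2 lines, which share no library, had a Pearson correlation of 0.62, against 0.27 over all genes tested. The Spearman correlations were closer, at 0.63 and 0.49, and the signs matched for 81.7% and 71.3% of genes.

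In the additive model, 2 of the 93 genes were called higher with norepinephrine and 8 lower (10.8% of them, against 12.3% of all genes, 5.04% higher and 7.29% lower). With the length and GC trend off, 4 were higher and 1 lower, against 4.74% and 3.56% of all genes (8.3% called). Cenpb was the 1 gene called in the same direction in both fits. The 2 genes called higher were Cenpb (log2 0.30, SE 0.09, edgeR adjusted p = 0.00933) and Cenpm (0.34, edgeR adjusted p = 0.00549). Cenpb was higher with norepinephrine by 0.22 in shFAK (interval 0.15 to 0.28) and 0.39 in shNC (0.33 to 0.44).

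The 8 genes called lower with norepinephrine were Mki67, Ncapg2, Smc2, Kif14, Aspm, Kif24, Kif1b and Kif5b. Mki67 was lower by a log2 ratio of -0.21 in shFAK (-0.27 to -0.15) and -0.46 in shNC (-0.52 to -0.40), with an additive value of -0.34 (SE 0.09, edgeR adjusted p = 0.00303; 0.0939 with the trend off). Kif24 had -0.20 in shFAK (-0.47 to 0.08) and -0.60 in shNC (-0.94 to -0.28). Ncapg2 had -0.11 in shFAK (-0.21 to 0.00) and -0.52 in shNC (-0.63 to -0.41). A further 10 genes, Kif11, Kif20a, Kif20b, Kif23, Prc1, Racgap1, Bub1, Smc4, Top2a and Ccna2, had intervals below 0 in both lines without an additive call. Of these, Racgap1 turned to the other side in shNC with the trend off (log2 0.06, interval 0.01 to 0.12), and Kif23 and Top2a came to 0.00 and -0.03 there. Length correlated with the norepinephrine ratio at -0.44 in shFAK and -0.70 in shNC (Spearman over the 93 genes), against -0.29 and -0.49 over all genes, and at 0.02 and -0.21 with the trend off.

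**Figure D4:**
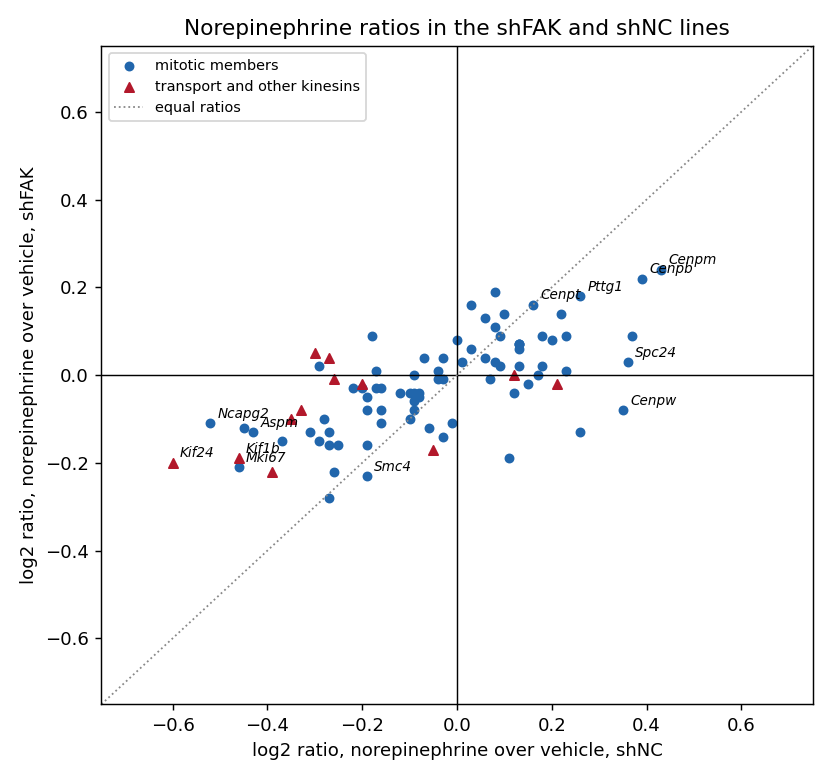
Log2 ratio of norepinephrine over vehicle in shFAK (vertical axis) against shNC (horizontal axis) for the 91 genes averaging 5 CPM or more. Most points lie closer to 0 on the vertical than on the horizontal axis, with Kif24 at -0.20 in shFAK and -0.60 in shNC, and Cenpm at 0.24 and 0.43.

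The difference between the responses, shFAK minus shNC, was clear of 0 for 17 genes higher and 11 lower (11.9% and 11.1% of all genes tested, 23% in either direction). The highest was Ncapg2, at 0.42 (0.27 to 0.57), followed by Kif14 at 0.33 (0.10 to 0.56), Cenpf at 0.31 (0.16 to 0.46) and Aspm at 0.30 (0.11 to 0.48). The lowest was Cenpw, at -0.43 (-0.67 to -0.19), followed by Spc24 at -0.32 (-0.47 to -0.18), Cenpx, a histone-fold kinetochore protein, at -0.28 (-0.46 to -0.10), and Cdk1 at -0.22 (-0.31 to -0.12). For the first genes the fall with norepinephrine in shNC was larger than in shFAK, and for Cenpw, Spc24 and Cdk1 norepinephrine gave higher levels in shNC and log2 ratios of -0.08, 0.03 and 0.01 in shFAK. Length correlated with the difference at 0.63 over the 93 genes and 0.38 over all genes, and at 0.26 over the 93 with the trend off. There, 16 differences in place of 28 were clear of 0. The share of all genes clear of 0 with the trend off is not given here, so this fall describes these genes alone.

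Other genes of mitosis and the cell cycle, from lists of 121 genes of which 119 were tested, were also called in both directions. In shFAK 21 were called higher and 19 lower, or 11 and 28 with the trend off (16.8% and 18.2% of all genes). With norepinephrine 5 were called higher and 14 lower, but 6 and 2 with the trend off (4.74% and 3.56% of all genes). Without the trend correction, the hairpin calls were 17.6% and 16% of the 119, close to the 19.5% and 16.2% of all genes. The norepinephrine calls were then 4.2% and 11.8%, against 5.04% and 7.29%. The 15 genes of the APC/C list, subunits and the co-activator Fzr1, had 3 called higher and 5 lower. Cdc27, a scaffold subunit, was higher (additive log2 0.39, edgeR adjusted p = 1.07e-04), while the small subunits Anapc13 and Anapc15 were lower (-0.37 each, edgeR adjusted p = 2.67e-04 and 0.00343). Cdc27, Anapc13 and Anapc15 kept their calls with the trend off. The list then had 1 gene called higher and 8 lower, against 16.8% and 18.2% of all genes.

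Cohesin and its regulators had 3 of 10 called higher in shFAK (19.5% of all genes) and 5 lower with norepinephrine (7.29% of all genes). With the trend off, 1 was higher and 2 lower in shFAK, and 1 was lower with norepinephrine. Their median length was 8544 bases, against 3981 over all genes tested. Those called higher in shFAK were led by the cohesin loader Nipbl (0.49, edgeR adjusted p = 1.05e-06). It had 77.5 and 89.2 CPM in shFAK norepinephrine and vehicle, against 47.3 and 73.6 CPM in shNC norepinephrine and vehicle. Of 16 genes of the KMN network, the RZZ complex and the Ska complex, 2 were higher and 1 lower. Kntc1, a part of the RZZ complex, was higher (0.44, edgeR adjusted p = 1.07e-05), as was Knl1, the kinetochore scaffold (0.34, edgeR adjusted p = 6.29e-04), and Pmf1, a part of the MIS12 complex, was lower (-0.47, edgeR adjusted p = 2.18e-06). Of 33 further mitotic genes 6 were higher, Iqgap3 (0.34) and the midbody kinase gene Cit (0.33) among them, and 5 lower, with Depdc1b at -0.34. With the trend off, Nipbl, Kntc1, Pmf1 and Depdc1b kept their calls, and Knl1, Iqgap3 and Cit did not.

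Of 18 genes of the DREAM, MuvB and E2F complexes, 4 were called higher, including Lin54, the subunit that reads the cell cycle homology region (0.30, edgeR adjusted p = 0.00552), the pocket protein Rbl2 (0.38, edgeR adjusted p = 0.00161) and Tfdp2 (0.34, edgeR adjusted p = 0.00172), and 1 lower. Lin54 and Rbl2 kept their calls with the trend off, and Tfdp2 did not. Among 8 CDK inhibitor genes, 1 was called higher and 3 lower in shFAK. Cdkn1a, which encodes p21, had 27.0 and 29.0 CPM in shFAK norepinephrine and vehicle, against 20.8 and 17.6 CPM in shNC norepinephrine and vehicle (0.55, edgeR adjusted p = 5.53e-07; 9.83e-13 with the trend off). Cdkn2a had 214 and 208 CPM in shFAK norepinephrine and vehicle, against 331 and 256 CPM in shNC norepinephrine and vehicle (-0.46, edgeR adjusted p = 1.80e-06), and Cdkn3 was at -0.54. Cdkn1a was above, and Cdkn2a below, the shNC libraries in both shFAK libraries.

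Of 19 genes of the start of the cycle and DNA replication, 2 were called higher and 4 lower, or 1 and 8 with the trend off. The replication helicase gene Mcm3 had 316 and 306 CPM in shFAK norepinephrine and vehicle, against 439 and 441 CPM in shNC norepinephrine and vehicle (-0.50, edgeR adjusted p = 1.26e-07; 2.11e-14 with the trend off). Cdk4 was lower as well, with 463 and 436 CPM in shFAK norepinephrine and vehicle, against 609 and 554 CPM in shNC norepinephrine and vehicle (-0.37, edgeR adjusted p = 1.10e-04). Its relative Cdk6, at 13989 bases, was higher (0.40, edgeR adjusted p = 4.69e-05; 0.0576 with the trend off).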

How the data were processed

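RNA-seq was made from 4 cultures of Myc-CaP cells, 1 library a group, using NEBNext Ultra, a kit without strand marking, per the labels' protocols. The authors deposited raw counts per gene for 52636 genes with gene length in bases as a further column. The submitters' processing notes name the mm10 build, HISAT2 2.0.5 and featureCounts 1.5.0-p3. Not given in the sources used here were the release of the annotation, how strand was set and how reads mapping to several places were treated. Of the deposited gene IDs found in GENCODE M21, 95.2% had identical coordinates. Columns were assigned by sample titles, and 0 per-sample columns were left unused.

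The deposited counts were scaled with TMM (edgeR 4.0.16, R 4.3.3), and genes with at least 1 CPM in a library were kept. Log2 ratios used a prior count of 2 and exact 99% Clopper-Pearson intervals (normal on the log scale for the difference of responses). These cover counting error only, since the reads carry no molecular identifiers and PCR copies are not independent. The additive model (hairpin and treatment, 1 residual degree of freedom) used edgeR's quasi-likelihood test with Benjamini-Hochberg adjustment. The trend was a spline with 4 degrees of freedom in length and GC content, fitted per library, with a GC value for 99.9% of genes tested. The computations were tested on simulated data.

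The genes, their roles and the other lists were chosen with earlier results of these data known. Values in every library are given for a preset list of well-known members and for those with the largest ratios by role, pair and difference. Cenpi, Ncaph2, Ndc80, Kif16b, Kif3a, Kif3b, Kif1c, Kif17, Kif5a, Kif22, Kif23, Kif2a, Racgap1, Kif15, Ncapg, Cdc25a and Cenpv were named after their values were seen. Matching stretches in other genes (BLAST 2.17.0 matches of at least 95% identity over 200 bases) made the counts of Ccnb1, Cenpw, Kif2a, Mad2l1 and Mki67 uncertain, and 17 members share at least 200 exon bases with another gene. Alternatives were other scalings (DESeq2 1.42.0 size factors, upper quartile, library size), filters, prior counts, thresholds of 1.5-fold and 1.2-fold, protein-coding genes alone, genes with such matches left out, DESeq2's Wald test, robust empirical Bayes and glmTreat. Some markers of the prostate epithelium list and its summed level are not reported here.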

Additional observations from a re-analysis of the deposited data

Results flagged for a closer look

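Cenpf was the 1 gene of the 93 (1.08%) whose hairpin ratios had opposite signs with both intervals clear of 0, against 69 of 12351 genes (0.559%). Its log2 ratio of shFAK over shNC was 0.12 under norepinephrine (0.01 to 0.23) and -0.19 under vehicle (-0.29 to -0.09). With 1 library a group this difference between the treatments was not tested. With the length and GC trend off, both ratios were below 0, at -0.25 under norepinephrine and -0.38 under vehicle.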

How the results depend on the processing

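No paired analysis was possible because each group had 1 library, and leaving out a library left no residual degree of freedom in the additive model, so neither was run. The 35 genes called for the hairpin became 12 with DESeq2's Wald test (8 higher, 4 lower), 3 with glmTreat against 1.2-fold (3 higher) and 22 without a filter (of 104 tested). Over all 12351 genes, the 4410 hairpin calls became 1672 with DESeq2 and 1148 with glmTreat. Without a filter they were 3729 of 27256 genes. Library size alone moved the split to 24 higher and 4 lower and the median of all genes by 0.09 under norepinephrine and 0.04 under vehicle. The 10 called for norepinephrine became 0 with DESeq2 (12 at an unadjusted p under 0.05), 0 with glmTreat (1 unadjusted), 5 with the length and GC trend off and 6 without a filter. Over all genes, the 1524 norepinephrine calls became 87 with DESeq2, 86 with glmTreat, 1025 with the trend off and 948 without a filter. The 28 differences of response clear of 0 became 16 with the trend off, where the share of all genes is not given here. Past a 1.2-fold threshold were 34 genes for the hairpin under norepinephrine, 7 under vehicle, 22 for norepinephrine in shNC and 9 for the difference. Past 1.5-fold were 4 for the hairpin under norepinephrine and 1 for norepinephrine in shNC. Shares of all genes past these thresholds are not given here, so the counts describe these genes alone. Without a filter, 1 gene met 2-fold for the hairpin under norepinephrine (Kif21b, 17 counts in shFAK against 3 in shNC) and 1 for norepinephrine in shFAK (Kif26a, 9 counts with norepinephrine against 0 with vehicle), both named after their values were seen. With the trend off, log2 ratios that were clear of 0 changed sign for 4 of 54 genes for the hairpin under norepinephrine (Cenpf to -0.25, Kif15 to -0.14, Ncapg to -0.05 and Ccnb2 to 0.01), 0 of 48 under vehicle, 3 of 23 for norepinephrine in shFAK (Aspm to 0.01, Ncapg2 to 0.02 and Cdc20 to -0.01) and 9 of 59 in shNC (Kif15 to 0.12, Racgap1 to 0.06, Cenpf to 0.05, Cdc25a and Ncapg to 0.03, Plk1 to -0.11, Cenpv to -0.06, and Aurka and Ube2c to -0.01). The cause was not tested.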
